A study of Sus scrofa with 21 samples.

Results

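The genes described here are 8 genes of T cells and natural killer (NK) cells in the pig (Sus scrofa): PTPRC, CD3E, CD3D, CD2, LCK, STAT4, IL7R and CD5. They were chosen by name from a list of 9 symbols, and 8 of the 9 were found by pig gene symbol among the 24358 genes of the deposited count table; ZAP70, the ninth, was not matched by symbol and is not analysed here. The series tested a microbrush that is passed through a vessel to collect endothelial cells, and it held 21 RNA sequencing libraries from 3 pigs. The brush was used in kidney and liver, with 5 libraries from each. The negative control was a wire with no brush attached, used in the same organs, 2 libraries from each. The positive control was aorta removed by surgery, with 4 libraries, and whole blood added 3 more. Pig 243K contributed microbrush 2, 5, 6, 9 and 10, wire 1 and 4, and blood 1 and 2, and pig 248K contributed microbrush 1, 3, 4, 7 and 8, wire 2 and 3, and blood 3. All 4 aorta libraries came from pig 237053, which gave no other library, so aorta and that pig cannot be told apart. The labels give no treatment, genotype, age or disease for any animal. Several libraries share an animal, so every p below measures the spread between libraries.

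T cells and NK cells are lymphocytes that travel in blood and enter tissues, including the outer wall of large arteries. A T cell reads its antigen receptor through the CD3 chains, whose cytoplasmic tails are phosphorylated by the kinase LCK. The phosphatase PTPRC (CD45), present on nearly all white blood cells, keeps LCK ready to act. CD2 and CD5 are surface proteins that strengthen or dampen this signal, IL7R receives the survival cytokine interleukin 7, and STAT4 carries the interleukin 12 signal to the nucleus in T and NK cells. PTPRC is thus a gene of all white cells, while CD3E and CD3D mark T cells most closely, CD2 is shared with NK cells, and CD5 and IL7R are also found on other lymphocytes.

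On the RefSeq annotation of Sscrofa11.1, the build that the submitters name, CD3E (chromosome 9, 45619730 to 45633972) and CD3D (chromosome 9, 45640475 to 45644153) are neighbours. PTPRC lies on chromosome 10 at 21482984 to 21601627, CD2 on chromosome 4 at 103963802 to 103976971 and LCK on chromosome 6 at 88719886 to 88745922. STAT4 lies on chromosome 15 at 95656206 to 95764099, IL7R on chromosome 16 at 21300141 to 21330156 and CD5 on chromosome 2 at 10648973 to 10673479. Of the 8 genes, IL7R overlaps another annotated gene, LOC106508147, and because no source used here states whether strand was used in counting, reads of these 2 genes cannot be told apart.

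Levels are CPM, estimated counts per 1000000 counts of the library total after trimmed-mean (TMM) scaling over the 20 libraries that held at least 100000 counts. Library totals ran from 1144932 to 10188552 counts for the microbrush, from 1946286 to 11128400 for the wire and from 1603229 to 3033008 for aorta, and were 5301288 in blood 1 and 3224540 in blood 3. Blood 2 held 5634 counts over 302 genes and had no count for any of the 8 genes, which at that depth allows each a share of up to 0.0533% of its counts; it was left out of the levels and tests. Some libraries stand apart in how many genes they caught: microbrush 4 had counts for 3831 genes, wire 2 for 9715, wire 3 for 10169 and microbrush 6 for 12653, while the other deep libraries had counts for 15023 to 20032. The labelled materials carried their defining genes: the summed level of 8 smooth muscle genes was 24179 to 50168 CPM in aorta against 167 to 249 in blood, and that of 7 red cell genes was 28025 to 42828 CPM in blood against 74.2 to 105.7 in aorta.

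PTPRC was highest in blood and lowest in aorta. It stood at 3590.1 CPM in blood 1 and 1523 CPM in blood 3. The 4 aorta libraries held 39.5, 76.3, 46.2 and 50.2 CPM. The wire libraries lay between aorta and blood 1, at 410 CPM in wire 1, 478 in wire 2, 1535 in wire 3 and 445 in wire 4, so that wire 3 reached the level of blood 3 from its own pig. That match rests on the TMM factors, 0.34 in wire 3 and 1.51 in blood 3. As a share of library counts, PTPRC was 0.0521% in wire 3 and 0.230% in blood 3. The 10 microbrush libraries ran from 52.3 to 696 CPM with a median of 252, and 9 of them exceeded the highest aorta library; microbrush 9 was the lowest. The means were 2556 ± 1462 CPM in blood (SD, n = 2), 717 ± 546 on the wire (n = 4), 325 ± 241 on the microbrush (n = 10) and 53.0 ± 16.1 in aorta (n = 4). Whether fewer white cells or less RNA per cell underlie a lower level cannot be told apart in bulk libraries, here and for the other 7 genes.

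**Figure D1:**
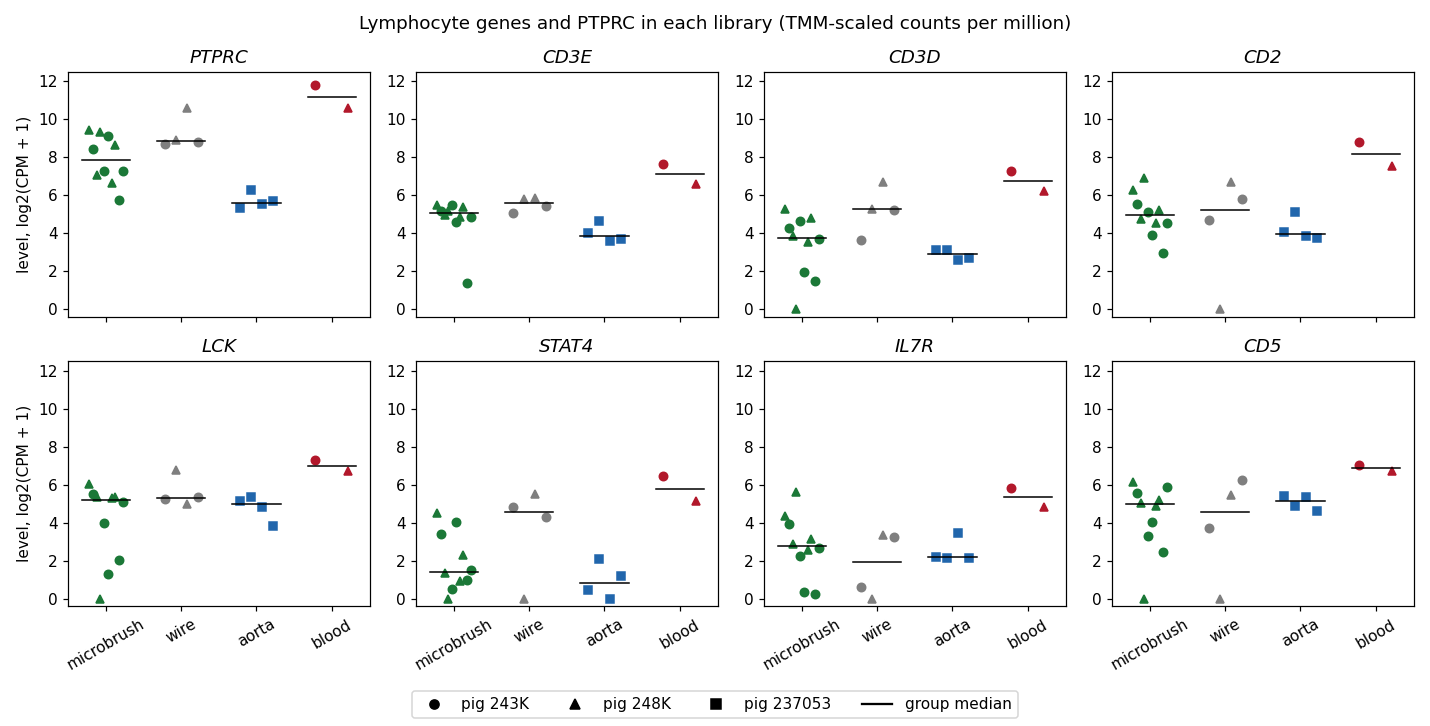
Level of each of the 8 genes as log2(CPM + 1), one panel per gene and one point per library, by group, with the point's shape giving the pig and the black line the group median. Both blood libraries sit above all 4 aorta libraries in every panel, while the microbrush and wire points spread between and, for several genes, reach 0.

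The CD3 genes encode the signalling chains that define a T cell. CD3E stood at 199.9 and 94.1 CPM in blood 1 and blood 3, and at 15.0, 23.8, 10.9 and 11.9 CPM in the 4 aorta libraries. All 4 wire libraries lay above every aorta library and below both blood libraries, at 33.0, 54.0, 56.9 and 43.0 CPM. Their place above aorta rests on the TMM factors. As a share of library counts, CD3E was 0.00289% in wire 1 and 0.00193% in wire 3, against 0.00317% in aorta 2. The microbrush libraries ran from 1.63 to 44.8 CPM with a median of 32.8, and 8 of 10 lay above the highest aorta library. CD3E had the smallest SD relative to its mean of the 8 genes on the microbrush: apart from microbrush 9, at 1.63 CPM from 10 counts, they lay between 23.2 and 44.8 CPM. CD3D stood at 153 and 73.9 CPM in blood and at 7.69, 7.68, 4.96 and 5.53 CPM in aorta. On the wire it was at 11.7, 38.0, 104.5 and 36.9 CPM, again above every aorta library, with wire 3 above blood 3. That excess rests on the TMM factors, since as a share of library counts CD3D was 0.00355% in wire 3 and 0.0112% in blood 3. The microbrush libraries ran from 0 to 38.5 CPM with a median of 12.7, and they spanned the aorta range, 7 above it and 3 below.

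CD2, an adhesion receptor of T and NK cells, stood at 449 and 189 CPM in blood. It was at 16.1, 33.9, 13.4 and 12.34 CPM in aorta. On the wire CD2 was at 25.1, 0, 104.5 and 54.1 CPM, and on the microbrush at 6.85 to 118.4 CPM with a median of 29.98. Thus 2 of 4 wire and 5 of 10 microbrush libraries exceeded the highest aorta library, and wire 2 had no count. For CD5, which dampens receptor signalling, aorta held 40.9, 28.7, 39.2 and 23.4 CPM, against 129.9 and 103.3 CPM in blood. The wire libraries were at 11.9, 0, 42.3 and 74.3 CPM and the microbrush libraries at 0 to 68.8 CPM with a median of 30.4. For CD5 the aorta range lay inside the ranges of both devices.

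LCK, the kinase that starts receptor signalling, stood at 156.8 and 102.3 CPM in blood. Aorta held 34.0, 39.4, 26.8 and 13.3 CPM. The wire libraries were at 36.3, 107.1, 30.2 and 38.9 CPM, and the microbrush libraries ran from 0 to 64.3 CPM with a median of 35.5. As with CD5, the aorta libraries overlapped with those of both devices, and wire 2 reached the level of blood 3 from its own pig. That match rests on the TMM factors, since as a share of library counts LCK was 0.00978% in wire 2 and 0.0154% in blood 3.

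STAT4 was at or below the limit of detection in 3 of 4 aorta libraries. It had 418 counts in blood 1, or 86.6 CPM, and 33.9 CPM in blood 3. The 4 aorta libraries had 1, 13, 0 and 3 counts, or 0.35, 3.22, 0 and 1.28 CPM, where 3 counts are worth 0.743 to 1.49 CPM; aorta 2, with 13 counts, was the 1 aorta library above that. The wire libraries were at 26.9, 0, 44.7 and 18.7 CPM, so 3 of 4 lay above every aorta library. On the microbrush STAT4 ran from 0 to 21.8 CPM with a median of 1.65, and 4 of 10 libraries lay above the highest aorta library. IL7R, the interleukin 7 receptor, stood at 55.7 and 27.5 CPM in blood and at 3.50, 3.47, 9.93 and 3.40 CPM in aorta. It was at 0.51, 0, 8.99 and 8.60 CPM on the wire, with no wire library above the highest aorta library. The microbrush libraries ran from 0.16 to 48.0 CPM with a median of 5.91, and the highest, microbrush 4, lay above blood 3 from its own pig.

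**Figure D2:**
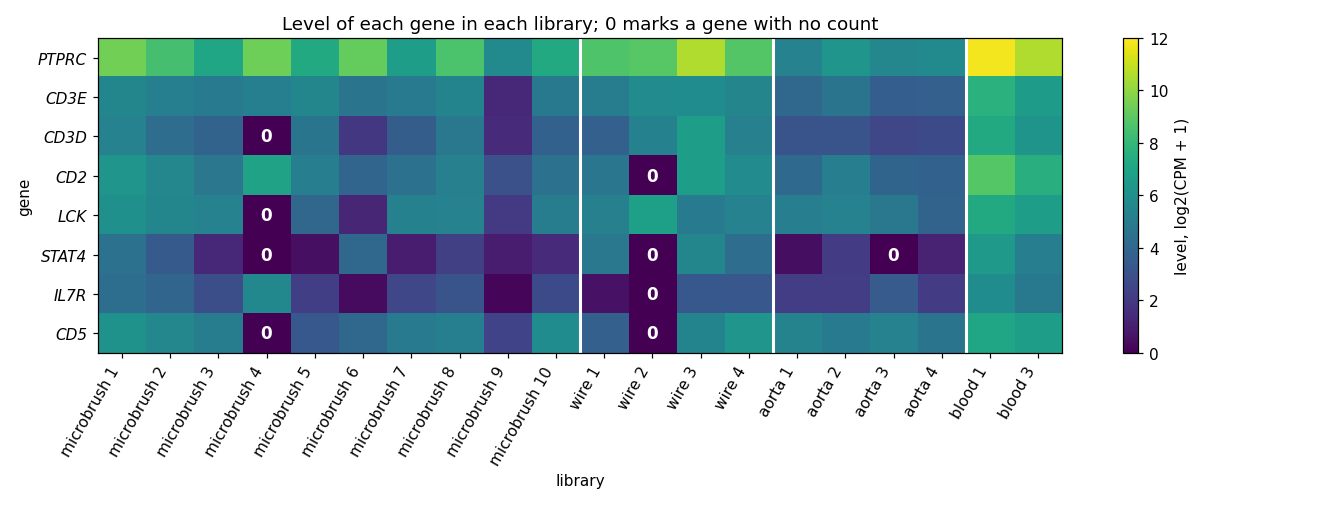
Level of the 8 genes as log2(CPM + 1) in each of the 20 libraries, with a printed 0 where a gene had no count and white lines between the groups. The zeros fall in microbrush 4 (4 genes), wire 2 (4 genes) and aorta 3 (STAT4 alone).

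Among the device libraries the zeros fell in 2 of the 4 that caught few genes; wire 3 and microbrush 6 had counts for all 8. Microbrush 4 had no count for CD3D, LCK, STAT4 or CD5, yet held the highest CD2 and IL7R levels of any microbrush library, at 118.4 and 48.0 CPM. Wire 2 had no count for CD2, STAT4, IL7R or CD5, and held the highest LCK level on the wire, 107.1 CPM. A count of 0 allows up to 1.296 CPM in microbrush 4 and 1.27 CPM in wire 2 by counting error alone. Microbrush 4 also had counts for 0 of 12 monocyte and macrophage genes and 4 of 12 B cell genes. The part of low gene capture in these zeros was not tested.

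The order of the group means was blood, wire, microbrush, aorta for PTPRC, CD3E, CD3D, CD2 and STAT4. For LCK the order was blood, wire, aorta, microbrush, and the last 3 means lay within the SD of the wire libraries, at 53.1 ± 36.2, 28.4 ± 11.3 and 27.7 ± 21.7 CPM. For CD5 it was blood, aorta, wire, microbrush, with the last 3 at 33.1 ± 8.40, 32.1 ± 33.3 and 29.6 ± 22.9 CPM. For IL7R blood came first at 41.6 ± 19.9 CPM, followed by the microbrush at 10.96 ± 14.3, aorta at 5.07 ± 3.24 and the wire at 4.52 ± 4.94 CPM. By the test across all genes, described next, neighbours in these orders did not differ beyond the spread of libraries, with 1 exception, CD5 between blood and aorta; aorta and wire were not tested for IL7R.

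Aorta against blood showed the clearest difference. All 8 genes were lower in aorta in edgeR's quasi-likelihood test at a Benjamini-Hochberg adjusted p under 0.05, where 26.8% of all 17130 genes tested passed in either direction and 14.6% were lower in aorta. For all 8 the 4 aorta libraries lay below both blood libraries, as they did for 19.4% of all genes tested. The median log2 fold change of the 8 genes was -3.64, against 0.40 over all genes. PTPRC fell furthest, with a log2 fold change of -5.59 (SE 0.59, adjusted p = 4.67e-13), a 48.1-fold difference. STAT4 followed at -5.40 (SE 0.59, adjusted p = 2.1e-10), from the few counts given above. CD3D changed by -4.10 (SE 0.42), CD2 by -4.05 (SE 0.47), CD3E by -3.23 (SE 0.41) and IL7R by -3.08 (SE 0.50), with adjusted p-values from edgeR between 7.17e-14 and 3.81e-07. LCK, at -2.18 (SE 0.41, adjusted p = 7.91e-06), and CD5, at -1.82 (SE 0.40, adjusted p = 0.000139), differed least. With RLE size factors (the scaling DESeq2 uses, computed in edgeR) in place of TMM, where 5.12% of all genes were lower in aorta, LCK at -1.26 (adjusted p = 0.0519 by edgeR) and CD5 at -0.94 (adjusted p = 0.0758) no longer passed. With all 20 libraries in a common fit only PTPRC passed, with an adjusted p from edgeR of 0.0136, and 0.274% of all genes were lower in aorta. The fold changes there were close to those above and their SEs larger, as for CD3E at -3.25 (SE 0.97) and STAT4 at -5.54 (SE 1.75). With the shallow blood 2 added only IL7R passed, STAT4 was not tested, and 0.912% of all genes were lower.

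**Figure D3:**
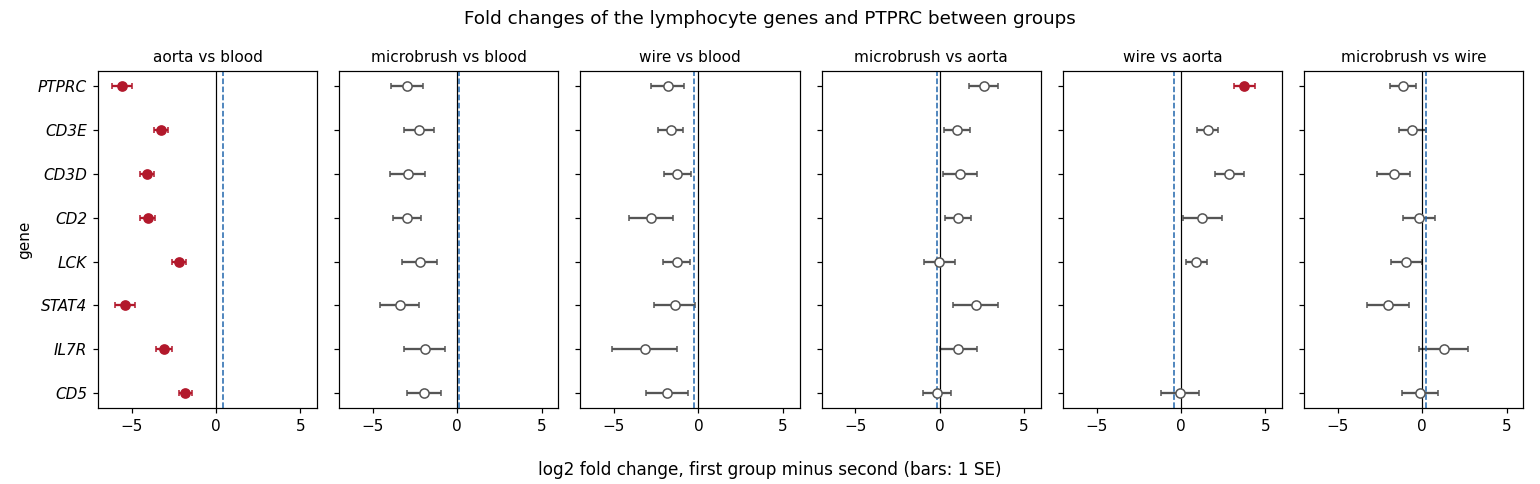
Log2 fold change of each gene in 6 comparisons, first group minus second, with bars of 1 SE; filled red points had an adjusted p under 0.05 by edgeR, open points did not, and the dashed line is the median over all genes tested. All 8 genes passed in aorta against blood and PTPRC passed in wire against aorta; STAT4 and IL7R were not tested there.

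The level that aorta held was thus 48.1-fold below blood for PTPRC but 3.53-fold for CD5 and 4.54-fold for LCK. To see this within a library, each gene was set against PTPRC as log2((gene CPM + 1)/(PTPRC CPM + 1)), in which the library's scaling nearly cancels. For CD5 this ratio was -0.66 ± 0.68 in aorta (SD, n = 4) and -4.32 ± 0.64 in blood (n = 2), with the wire at -5.40 ± 2.62 (n = 4) and the microbrush at -3.66 ± 2.27 (n = 10). For LCK it was -0.94 ± 0.68 in aorta, -4.20 ± 0.44 in blood, -3.68 ± 1.44 on the wire and -3.92 ± 2.60 on the microbrush. CD3E stood at -1.74 ± 0.31 in aorta and -4.08 ± 0.11 in blood, and CD2 at -1.51 ± 0.38 and -3.00 ± 0.01. The mean ratio was highest in aorta for all 7 genes. For STAT4, with 0 to 13 counts in aorta, this did not hold with a pseudocount of 0.1 CPM, where aorta minus blood was -0.83, or without wire 2, where wire minus aorta was 0.31. Aorta and blood did not overlap in the ratio for 6 of the 7, and STAT4 was the exception, at -4.79 ± 0.59 in aorta and -5.40 ± 0.06 in blood. PTPRC, the reference, itself lay at percentile 0.22 of the fold changes of all genes in aorta against blood. Any gene that fell less than PTPRC thus tends to a higher ratio in aorta. The share of all genes with such a ratio, or without overlap in it, was not computed. With 4 libraries against 2 the exact two-sided permutation test cannot go below p = 0.0667, which those 6 genes reached. Of the 49 ratio tests, 7 genes in 7 comparisons, the smallest adjusted p was 0.127 and none passed. It was reached for 6 genes in wire against aorta, each at the smallest p that 4 against 4 allows, 0.0286, and for CD3E, CD2, IL7R and CD5 in microbrush against aorta and IL7R in microbrush against wire.

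**Figure D4:**
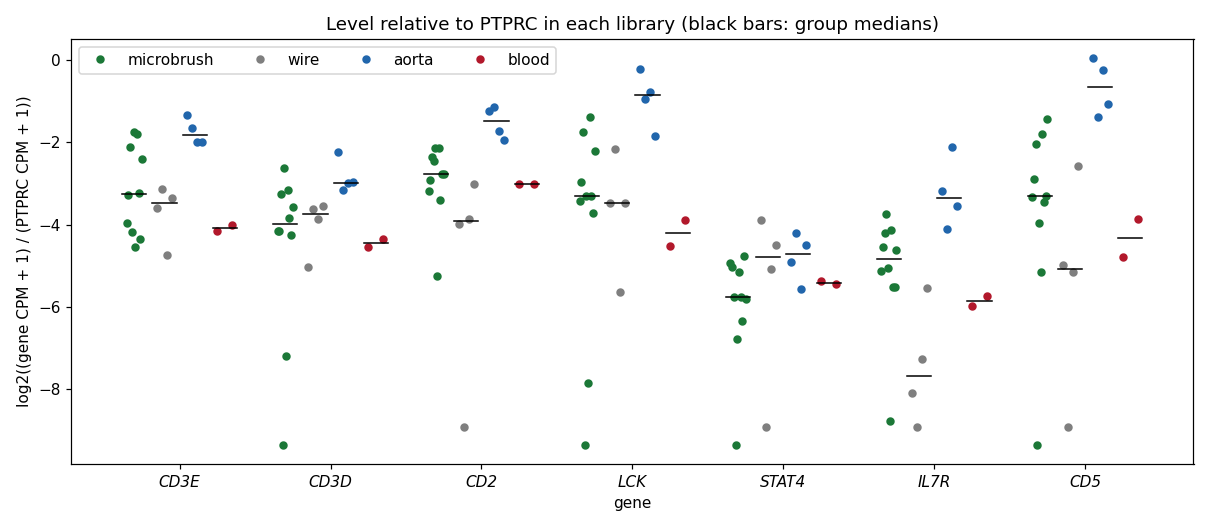
Log2 ratio of each gene to PTPRC, with 1 CPM added to both, in each library, coloured by group, with black bars at the group medians. Aorta (blue) has the highest mean for every gene, though not for STAT4 at a pseudocount of 0.1 CPM or without wire 2. PTPRC itself was 48.1-fold lower in aorta than in blood. CD5 and LCK in aorta lie nearest to 0, and the lowest microbrush and wire points are libraries in which the gene had no count.

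PTPRC is carried by other white cells too, so their marker genes are given beside it. The summed level of 12 B cell genes was 159 to 236 CPM in aorta and 562 to 989 in blood. That of 12 monocyte and macrophage genes was as high in aorta, at 237 to 348 CPM as in blood, at 232 CPM in both libraries. The 9 neutrophil genes summed to 103.95 to 207 CPM in aorta and 303 to 452 in blood. The part of these cells in the PTPRC level was not tested.

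The wire and aorta were compared next, since the wire is the study's negative control and aorta its positive control. PTPRC was higher on the wire, with a log2 fold change of 3.75 (SE 0.63) and an adjusted p of 0.0131 by edgeR, 13.5-fold. It was the 1 gene of the 6 tested that passed, where 3.09% of 15174 genes passed in either direction with 2.33% higher and 0.758% lower on the wire. All 4 wire libraries lay above all 4 aorta libraries in CPM for PTPRC, CD3E and CD3D, and for 6.02% of all genes tested. By share of library counts this did not hold for CD3E, at 0.00289% in wire 1 and 0.00193% in wire 3 against 0.00317% in aorta 2. The share of CD3D was 0.00102% in both wire 1 and aorta 2. CD3D, at 2.87 (SE 0.83, adjusted p = 0.103), and CD3E, at 1.59 (SE 0.62, adjusted p = 0.277), did not pass edgeR's test. CD2 was at 1.27 (SE 1.16), LCK at 0.90 (SE 0.61) and CD5 at -0.04 (SE 1.11), with adjusted p-values from edgeR of 0.799, 0.7 and 0.995. STAT4 and IL7R did not pass the filter on low counts. The median over the 6 tested genes was 1.43, against -0.39 over all genes. The PTPRC call did not survive leaving out any 1 of the 4 aorta libraries (adjusted p from edgeR 0.0594 to 0.0685, log2 fold change 3.64 to 3.98). Summed levels of marker genes of other cells differed too: the 7 red cell genes summed to 2045 to 35532 CPM on the wire and 74.2 to 105.7 in aorta, and the 5 platelet genes to 1891 to 13442 and 55.3 to 83.3. The 9 neutrophil genes summed to 252 to 661 CPM on the wire and 103.95 to 207 in aorta, the 12 B cell genes to 340 to 441 and 159 to 236, and the 7 endothelial genes to 206 to 1618 and 133 to 177. Summed smooth muscle genes were lower on the wire, at 1667 to 9890 CPM against 24179 to 50168 in aorta, and monocyte and macrophage genes, at 132 to 239 and 237 to 348 CPM, overlapped at the edge of their ranges. Gene by gene, edgeR's test passed 3 of 7 red cell, 3 of 5 platelet, 1 of 8 neutrophil and 2 of 7 endothelial genes as higher. It passed 0 of 11 B cell genes as higher, and 4 of 8 smooth muscle genes as lower. Fold changes ran against the summed level for 1 red cell, 3 neutrophil, 3 B cell, 1 endothelial and 1 smooth muscle gene. The part of these cells in the result was not tested.

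Against blood, the mean of every gene was lower on both devices. On the microbrush all 8 fold changes were below 0, with a median of -2.59 against 0.10 over all genes, where 44.1% of all genes tested were below 0. The 10 microbrush libraries lay below both blood libraries for 7 genes, IL7R being the exception, and for 3.39% of all genes. None of the 8 passed edgeR's test, where 0.0174% of 17263 genes passed. In all, 6 of the 8 had an unadjusted p under 0.05 (PTPRC, CD3E, CD3D, CD2, LCK and STAT4), as did 654 of all genes. PTPRC was at -2.98 (SE 0.93, adjusted p = 0.723), CD2 at -2.99 (SE 0.84, adjusted p = 0.558) and STAT4 at -3.42 (SE 1.18, adjusted p = 0.868) in edgeR's test. The remaining fold changes lay between -2.94 for CD3D and -1.93 for IL7R. The count depended on the tool. DESeq2, which gave an adjusted p for 5 of the 8, passed PTPRC alone as lower on the microbrush. It passed 0.574% of the 5229 genes with an adjusted p as lower, a smaller set than the other tools used. Limma voom with quality weights passed 6 genes (all but LCK and CD5) and 3.87% of all genes as lower. EdgeR on counts summed per pig and group passed 7 (all but PTPRC) and 1.16% of all genes as lower. On the wire all 8 fold changes against blood were also below 0, as were 59.2% of those of all genes, with a median of -1.74 against -0.25 over all genes. None passed, where 0.0184% of 16273 genes passed; the 4 wire libraries lay below both blood libraries for CD3E, CD2, IL7R and CD5, and for 11.4% of all genes. Without the libraries that hold counts for fewer than 12000 genes, an alternative chosen after seeing the data, CD3D, CD2 and IL7R passed, as did 1.46% of all genes as lower on the wire. By edgeR's test PTPRC was at -1.83 (SE 0.95) and CD2 at -2.79 (SE 1.30), each with an adjusted p of 1. With library totals alone PTPRC passed, at -2.65 (adjusted p = 0.00171 by edgeR). Limma voom passed PTPRC at -2.33 (adjusted p = 0.00367) and CD2 at -3.34 (adjusted p = 0.000908). Over the alternatives for wire against blood, apart from those leaving out 1 library, 0 to 5.24% of all genes passed.

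Set against the blood of its own pig, every microbrush library held less of each gene, with 1 exception, IL7R in microbrush 4 at 174% of blood 3. The median microbrush library held 9.28% of its own blood level for PTPRC, 3.56% for STAT4, 10.98% for CD2 and 13.2% for CD3D. It held more of the others: 20.4% for IL7R, 24.6% for LCK, 26.4% for CD3E and 29.4% for CD5. Among the wire libraries, wire 3 exceeded its own blood for PTPRC at 100.8%, CD3D at 141% and STAT4 at 132%, and wire 2 did so for LCK at 104.7%. These wire excesses rest on the TMM factors, 0.34 in wire 3, 0.91 in wire 2 and 1.51 in blood 3. As shares of library counts, wire 3 and blood 3 held 0.0521% and 0.230% for PTPRC and 0.00355% and 0.0112% for CD3D. For STAT4 they held 0.00152% and 0.00512%, and LCK was 0.00978% in wire 2 and 0.0154% in blood 3. IL7R in microbrush 4 stayed above blood 3, at 0.00457% against 0.00416%. The median wire library held 21.9% of its own blood for PTPRC, 39.4% for CD3E, 37.7% for CD3D, 26.4% for STAT4 and 27.2% for LCK, each above the microbrush median. It held 8.83% for CD2, 8.17% for IL7R and 25.1% for CD5, each below it. Each pig is represented by a single deep blood library, so these percentages carry that library's error and were not tested.

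The microbrush was above aorta in 6 of 8 fold changes, as it was in 39.9% of those of all genes. Their median was 1.09 against -0.17 over all genes. None of the 8 passed edgeR's test, where 0.14% of 16483 genes passed, 0.0607% higher and 0.0789% lower on the microbrush. PTPRC had the largest, 2.61 (SE 0.85, adjusted p = 0.345), and the only unadjusted p under 0.05, as 790 of all genes had. STAT4 followed at 2.12 (SE 1.32), with CD3D, IL7R, CD2 and CD3E between 1.01 and 1.19 and an adjusted p of 1 for each by edgeR. LCK, at -0.03 (SE 0.91), and CD5, at -0.16 (SE 0.85), were centred on no difference. For none of the 8 were the 10 microbrush libraries all above or all below the 4 aorta libraries, as they were for 1.87% of all genes. DESeq2 passed PTPRC in this comparison, with 0.938% of the 15566 genes with an adjusted p called higher on the microbrush. Limma voom passed PTPRC and CD3E, with 1.38% of all genes called higher.

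Between the study's own device and its control, the microbrush and the wire, none of the 8 genes passed edgeR's test, and 0% of 16139 genes did. In this comparison 488 genes, and none of the 8, had an unadjusted p under 0.05; DESeq2 called 0.631% of genes, none of them among the 8. In all, 7 of 8 fold changes were below 0, as were 39.7% of those of all genes, with a median of -0.76 against 0.22 over all genes. Of these 7, CD2 and CD5 turned positive with RLE size factors and with library totals alone, and CD3E with the latter. STAT4 was at -2.01 (SE 1.25), CD3D at -1.69 (SE 0.99) and PTPRC at -1.14 (SE 0.79), while CD2 at -0.20 (SE 0.93) and CD5 at -0.12 (SE 1.06) were nearer to 0. IL7R had the opposite sign, at 1.27 (SE 1.44). The 2 devices overlapped for all 8 genes, and for all but 0.0558% of genes tested. A model in which the device effect could differ by pig or by organ found no difference for any of the 8 (edgeR, smallest adjusted p 0.852).

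Kidney and liver microbrush libraries were compared within the device. Of the 7 genes tested, STAT4 being filtered out as too low, none passed, and 0% of 14871 genes did; 339 of all genes and none of the 7 had an unadjusted p under 0.05. CD3D stood at 21.3 ± 10.7 CPM in kidney and 8.34 ± 10.9 in liver (SD, n = 5 each), CD5 at 42.6 ± 23.1 and 16.6 ± 15.1, and LCK at 39.1 ± 18.0 and 16.4 ± 20.4. Their log2 fold changes were 1.36 (SE 1.22), 1.36 (SE 1.10) and 1.26 (SE 1.16), each with an adjusted p of 0.999 by edgeR. PTPRC was at 297 ± 239 CPM in kidney and 352 ± 268 in liver, a fold change whose sign turned under 7 alternatives, among them library totals alone (0.31) and leaving out microbrush 4 (0.099). Leaving out libraries under 12000 genes removed microbrush 4 alone here. It is thus the same fit, though counted among the 7 as well. Microbrush 4, with 4 of the 8 genes at 0, is a liver library.

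The wider T and NK cell programme was followed through 6 lists of other genes of these cells, listed by role. In aorta against blood, the list of T cell receptor signalling genes had 16 of 19 tested genes lower in aorta and none higher, with a median log2 fold change of -2.30 against 0.40 over all genes. They included the adaptor LCP2 (SLP-76) at -5.37 (SE 0.47) and the kinase TXK at -5.42 (SE 0.47). LCP2 stood at 5.67 ± 1.90 CPM in aorta (SD, n = 4) and 238 ± 111.9 in blood (n = 2). Among T lineage transcription factors 9 of 12 were lower and none higher (median -2.93), among them TCF7 at -3.76 (SE 0.50), SATB1 at -3.77 (SE 0.43) and IKZF1 at -3.67 (SE 0.43). FOXP3, the factor of regulatory T cells, did not pass, at 8.12 ± 2.19 CPM in aorta and 6.07 ± 0.41 in blood.

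Of the receptor and co-receptor list 6 of 13 genes were lower in aorta (median -1.04): TRAT1 at -4.46 (SE 0.44), CD247, the zeta chain of the receptor, at -3.23 (SE 0.43), CD4 at -2.66 (SE 0.43), THEMIS at -2.46 (SE 0.46), CD6 at -1.20 (SE 0.43) and CD8A at -1.17 (SE 0.39). CD4 stood at 10.8 ± 5.33 CPM in aorta and 69.2 ± 22.3 in blood, and CD8A at 33.0 ± 8.22 and 74.7 ± 12.1. In the NK and cytotoxic list 5 of 16 were lower (median -0.59), among them CCL5 at -4.92 (SE 0.52), NKG7 at -3.69 (SE 0.61) and CTSW at -2.35 (SE 0.40), while 6 had a positive fold change that did not pass. PRF1, which encodes perforin, was one of those 6, at 27.8 ± 10.6 CPM in aorta and 22.6 ± 2.63 in blood. GZMA appeared under 2 identifiers in the table, so its reads may have been split between near-identical copies.

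Of the cytokine receptor and JAK-STAT list 7 of 21 genes were lower in aorta (median -0.79), including JAK1 at -2.88 (SE 0.47), IL2RG, the shared receptor chain that pairs with IL7R, at -1.56 (SE 0.39), and JAK3 at -1.58 (SE 0.44). Of the homing and adhesion list 10 of 17 were lower (median -2.39), led by the integrin chain ITGA4 at -5.27 (SE 0.49), CD48 at -3.59 (SE 0.41) and ITGB7 at -3.14 (SE 0.40). The chemokine receptor CXCR3 was the 1 gene of the 6 lists higher in aorta, at 1.56 (SE 0.52, adjusted p = 0.0179 by edgeR), with 23.2 ± 6.43 CPM in aorta and 7.84 ± 1.12 in blood. These counts read against the 14.6% of all genes lower and 12.1% higher in aorta.

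In wire against aorta fewer genes of these lists passed. The signalling list had 4 of 18 higher on the wire, where 2.33% of all genes were (median 1.88 against -0.39 over all genes), among them LCP2 at 5.16 (SE 0.73), FYN at 4.33 (SE 0.74) and RASGRP1 at 2.75 (SE 0.57). The summed levels of platelet, red cell and neutrophil markers were also higher on the wire, as given above. Of 8 neutrophil genes tested, 1 passed as higher and 3 had a fold change below 0. The part of other cells in the levels of these signalling genes was not tested. The transcription factor list had 1 of 12, TCF7 at 2.31 (SE 0.47), the homing list 2 of 16, ITGA4 at 4.13 (SE 0.66) and ITGB7 at 2.84 (SE 0.60), and the NK list 1 of 13. That last gene, CD226, was at 313 ± 347 CPM on the wire (SD, n = 4) and 54.1 ± 28.3 in blood (n = 2); it is also a gene of platelets, whose 5 markers were high on the wire as given above, and their part in its level was not tested. No gene of the receptor or cytokine list passed, and no gene of the 6 lists was lower on the wire. In microbrush against aorta, microbrush against wire, microbrush against blood, wire against blood and kidney against liver, no gene of the 6 lists passed edgeR's test. In microbrush against blood the fold change was below 0 for 12 of 12 transcription factors, 18 of 19 signalling, 12 of 13 receptor, 16 of 17 homing, 14 of 16 NK and 16 of 21 cytokine genes, against 44.1% of all genes.

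**Figure D5:**
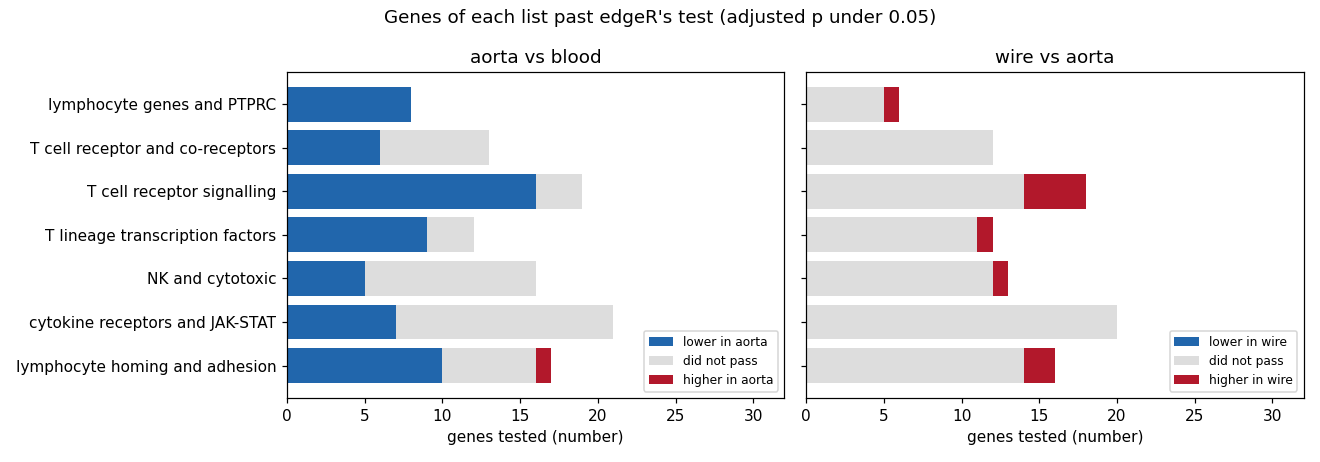
Number of genes tested in the 8-gene set and in each of 6 lists, in aorta against blood and in wire against aorta, with bar lengths in genes and colours for lower (blue), not passing (grey) and higher (red) in the first group. Aorta against blood is led by the signalling list, with 16 of 19 lower, and wire against aorta shows 1 to 4 higher genes in 5 of the 7 bars.

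The genes whose levels ran most like the 8 were sought over the 20 deep libraries, by Spearman correlation of log2(CPM + 1) with the mean of the 8 genes, among 11773 genes with a symbol and a mean of at least 5 CPM. The closest was LAX1, an adaptor of lymphocyte receptor signalling, at 0.95, followed by IKZF3 at 0.93, TRAT1 at 0.93, NUAK2 at 0.92 and TRAF3IP3 at 0.91. FAM78A, IKBKE and ST8SIA4 had values from 0.867 to 0.874. LAX1 stood at 76.4 ± 23.5 CPM in blood, 31.3 ± 21.0 on the wire, 28.2 ± 19.2 on the microbrush and 24.4 ± 7.19 in aorta. TRAT1, which is joined to the T cell receptor complex, stood at 138 ± 80.2, 23.9 ± 22.7, 9.59 ± 7.40 and 5.95 ± 3.76 CPM in the same order. The 20 points share pigs, scaling and groups of unequal spread, so these values describe likeness in these libraries and carry no test.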

How the data were processed

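RNA was sequenced from microbrush, wire, aorta and blood samples of pigs. Total RNA was prepared with a scaled-down RNAdvance Tissue protocol and SMARTer Pico libraries, per the labels' protocols; the submitters' processing notes name Salmon, DESeq2 and Sscrofa11.1. Versions, annotation release and use of strand are not given in the sources used here. The authors deposited estimated counts per Ensembl gene, unscaled between samples; whole numbers were lacking for 11.9% of values, which the tests took rounded. Symbols from the supplied list of gene names matched 14692 of 24358 identifiers.

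Groups came from the labels. Libraries under 100000 counts (blood 2) were left out. The 2 groups of a comparison were fitted alone in edgeR 4.0.16 (R 4.3.3): TMM factors over the 20 deep libraries, filterByExpr at a minimum count of 10, and the robust quasi-likelihood test with Benjamini-Hochberg adjustment over all genes at 0.05. Ratios to PTPRC, with a pseudocount of 1 CPM, went through exact two-sided permutation tests adjusted over 49 tests. Alternatives were RLE factors, library totals alone, TMM within a comparison, the 2 most abundant identifiers left out, other filters, DESeq2 1.42.0, limma 3.58.1 voom, a common fit, pig as a block, summed counts per pig, each pig or organ alone and each library left out.

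The 9 genes and the lists, with 201 genes of which 177 were in the table, were chosen with earlier results of these data known. All 9 genes were to be named, with up to 3 genes per list and comparison by smallest p, a few fixed genes (CD4, CD8A, CD247, PRF1, NKG7, IL2RG, JAK3 and TCF7 among them) and the 8 genes most alike; CD6, FOXP3, GZMA, CXCR3 and RASGRP1 were added after their values were seen. Some genes that this rule names are not reported here. No pair of libraries in a group held identical values or agreed within sampling noise (lowest chi-square per gene 5.91).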

Additional observations from a re-analysis of the deposited data

Results flagged for a closer look

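In 24 groups of 4 to 10 libraries, 1 per gene and group, 5 held a library whose gap to its nearest neighbour was too wide a share of the group's range by Dixon's test; chance alone flags about 1 group in 20. The levels tested were CPM after TMM scaling, and shares of library counts were not tested. CD3E was far below the rest in microbrush 9, at 1.63 CPM against 23.2 CPM in the next lowest. As a share of library counts CD3E was 0.000133% there, 0.000785% in the next lowest and 0.00633% in the highest microbrush library. IL7R was far above the rest in microbrush 4, at 48.0 CPM against 19.1 CPM in the next highest, in the library with counts for 3831 genes. PTPRC stood out in wire 3, at 1535 CPM against 478 CPM. That gap leans on the TMM factor of wire 3, 0.34. As a share of library counts PTPRC was 0.0521% in wire 3 and 0.0359% to 0.0452% in the other wire libraries. LCK stood out in wire 2, at 107.1 CPM against 38.9 CPM. Its shares of library counts were 0.00978% in wire 2, 0.00396% in the next highest and 0.00102% in the lowest wire library. IL7R stood out in aorta 3, at 9.93 CPM against 3.50 CPM, from 20 counts. By share of library counts IL7R was 0.00457% in microbrush 4 against 0.00221% in the next highest. In aorta 3 it was 0.00125% against 0.000462%.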

How the results depend on the processing

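The number of the 8 genes that passed depended on the tool, the scaling and the libraries in the fit. In microbrush against aorta, where none passed, DESeq2 passed 1 and limma voom 2. In microbrush against blood, where none passed, DESeq2 passed 1, voom 6 and counts summed per pig 7. In wire against aorta, where 1 passed, DESeq2 and the run without libraries under 12000 genes each passed 2, and leaving out 1 library gave 0 to 1. Of all genes in that comparison, 0.327% to 9.19% passed with 1 library left out. Over its remaining alternatives 0.806% to 8.51% passed. In wire against blood, where none passed, library totals alone passed 1 (PTPRC), voom 2 (PTPRC and CD2) and the run without libraries under 12000 genes 3. In aorta against blood, where 8 passed, the common fit of all libraries and the fit with blood 2 each passed 1, and leaving out 1 library gave 8 each time. Over all alternatives but those that leave out 1 library, the genes called among all tested ran from 0 to 0.631% of genes in microbrush against wire and, in numbers, 14 to 743 in microbrush against aorta, 0 to 1086 in microbrush against blood, 144 to 1406 in wire against aorta, 0 to 553 in wire against blood, 55 to 4940 in aorta against blood and 0 to 910 in kidney against liver. Leaving out 1 library gave 50 to 1449 in wire against aorta and 2334 to 7542 in aorta against blood. The alternatives moved the median of all genes in microbrush against wire from 0.085 to 0.79, while the median of the 8 genes minus it ran from -1.54 to -0.56. With pig as a replicate block, which pairs libraries of the same animal, 0 of the 8 genes passed in microbrush against wire, microbrush against blood, wire against blood and kidney against liver, as without it.

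Fold changes near 0 changed sign. Microbrush 4 was the only microbrush library under 12000 genes. In microbrush against aorta and kidney against liver, leaving out such libraries was thus the same fit as leaving out microbrush 4. In microbrush against wire, CD2 became 0.38 with RLE factors, 0.65 with totals alone, 0.40 with DESeq2, 0.093 in pig 248K and 0.59 in kidney, and ran from -0.61 to 0.60 (without wire 3) with 1 library left out. There CD5 became 0.47, 0.61, 0.49, 0.33 (voom), 0.63 in pig 248K and 0.20 in kidney, and ran from -0.53 to 0.71 with 1 left out, above 0 without microbrush 4, microbrush 9, wire 3 or wire 4; CD3E became 0.054 with totals alone. In microbrush against aorta, LCK became 0.037 with totals alone, 0.020 with TMM within the comparison, 0.36 with voom and 0.11 without libraries under 12000 genes, and ran from -0.27 to 0.17, above 0 without aorta 1 or 2 or microbrush 4, 5, 6 or 9; CD5 became 0.069 with voom. In wire against aorta, CD5 became 0.36 without libraries under 12000 genes and ran from -0.86 to 0.37, above 0 without wire 1 or 2 or aorta 1 or 3. In kidney against liver, PTPRC became 0.31 with totals alone, 0.080 with TMM within the comparison, 0.019 without the 2 most abundant identifiers, 0.26 with voom, 0.13 in pig 248K and 0.099 without libraries under 12000 genes, and ran from -0.83 to 0.099 (without microbrush 4). IL7R became 0.061, 0.10 and 1.13 with totals alone, without those identifiers and with voom, 1.87 with the pig block, 4.93 in pig 243K and 1.61 without libraries under 12000 genes, and ran from -0.71 to 1.61 (without microbrush 4). CD2 became -0.22 in pig 248K and ran from -0.31 to 1.04, below 0 without microbrush 1, 2, 6, 7 or 9.

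Of the ratios to PTPRC, a pseudocount of 0.1 CPM turned LCK in microbrush against blood to -0.17 and STAT4 in aorta against blood to -0.83. A pseudocount of 5 CPM turned LCK and STAT4 in microbrush against wire to 0.19 and 0.080, CD3D and STAT4 in microbrush against blood to 0.47 and 0.50, and STAT4 in wire against blood to 0.42. With 1 library left out, LCK in microbrush against blood ran from -0.036 (without blood 1) to 0.59, and in microbrush against wire from -0.89 to 0.27 (without wire 2). STAT4 ran from -1.48 to 0.20 (without wire 1) in microbrush against wire, from -0.75 to 0.92 (without wire 2) in wire against blood and from -1.37 to 0.31 (without wire 2) in wire against aorta, and CD5 from -2.02 to 0.090 (without wire 2) in wire against blood. The cause was not tested for any of these. With blood 2 the ratios could not be computed, since it had no count for any of the 8 genes.

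Few libraries limit these results: blood rests on 2 deep libraries, 1 per pig, and aorta on 1 pig. Depth limits the low levels, since a gene with no count could have stood at up to 1.296 CPM in microbrush 4.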
